A study of Mus musculus with 6 samples.

Results

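The 50 genes described here encode enzymes that carry glucose carbon through glycolysis, the pentose phosphate pathway and the tricarboxylic acid (TCA) cycle, with the kinases and the phosphatase that set pyruvate dehydrogenase activity and 2 bifunctional enzymes that set phosphofructokinase activity. They were taken by gene symbol, and each of the 50 has a row among the 23282 rows of the count tables. Of these, 49 had enough counts to be tested between the diets. The exception is Eno1, enolase 1, whose row held 0 counts in all 6 libraries.

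RNA came from forebrain hemispheres, without olfactory bulbs and cerebellum, of WT male C57BL/6J mice of 8 to 10 weeks, and the expression of each gene was read from its 3′ end with QuantSeq 3′ mRNA-Seq. A total of 3 libraries were from mice on a normal chow diet (NCD) and 3 from mice on a high-fat diet (HFD) with 60 kcal% fat for 10 days. The comparison asks whether short-term HFD stress changes transcript levels in the brain. The labels do not say that each library is a separate animal, so the p-values measure only the spread between these libraries, which may be technical.

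Glycolysis splits glucose into pyruvate, which lactate dehydrogenase turns into lactate or which pyruvate dehydrogenase passes into mitochondria as acetyl-CoA for the TCA cycle. The pentose phosphate pathway branches off after hexokinase and makes NADPH and ribose phosphate. Neurons and glia both take up glucose, and the brain relies on it as its main fuel when fed.

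The total count was between 6842785 and 9689372 per library, of which the 50 genes took between 0.668% and 0.730%. Markers of neurons, astrocytes and oligodendrocytes were present in every library, with all 8 of 8 listed markers tested for each. Markers of other tissues differed between libraries. Summed over 6 anterior pituitary markers the level was 1264 CPM (counts scaled to the library size) in HFD replicate 3 against 2.08 to 8.95 CPM in the other libraries. Summed over 5 erythroid markers, none of them at 0 in every library, it was 421 to 519 CPM under NCD and 544 to 824 CPM under HFD. All HFD libraries thus lay above all NCD libraries. In edgeR 4 of the 5 had an unadjusted p under 0.05, against 3.68% of all genes tested. The 5 markers of cerebellum, which was removed, summed to 131 to 152 CPM, of which Calb1 alone gave 98.0 to 121 CPM. Pcp2 gave 9.90 to 20.6 CPM and Cbln1 12.6 to 22.9 CPM. Cbln3 gave only 0.247 to 0.971 CPM, and Gabra6 had 1 count in HFD replicate 2 and 0 in every other library. NCD replicate 3 and HFD replicate 3 also differed most from their group, so counts that rest on them are given with and without them. The part of these differences in the values below was not tested, and in tissue RNA fewer cells of a type and less RNA per cell cannot be told apart.

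No member passed the test between the diets. In edgeR's quasi-likelihood test, 0 of the 49 had an adjusted p under 0.05, with a smallest adjusted p of 0.979, where 0.0% of all 13771 genes tested were called. At an unadjusted p under 0.05 the count was also 0, against 3.68% of all genes, and DESeq2, limma-voom and quantile normalization with limma each gave 0 as well. A difference of at least 1.5-fold was seen in 0 members, against 3.73% of all genes and 75 of the 11042 genes in the same range of mean CPM. The log2 fold changes, HFD over NCD, ran from -0.19 for Ogdh to 0.21 for Idh2, with 28 of the 49 above and 21 below 0, where 50.6% of all genes tested were below 0. Their median was 0.015, beside a median of -0.0025 over all genes tested.

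The libraries bounded these differences closely. The 95% interval of the log2 fold change lay inside 1.5-fold of no change for 47 of 49 members, while it did so for 62.5% of all genes tested. The median standard error was 0.12 for the members and 0.16 over all genes, and among those 11042 genes the interval lay inside 1.5-fold for 8513. The 2 members with wider intervals were Hk2 and Pcx. An interval inside 1.2-fold was reached by 10 of 49. Leaving out NCD replicate 3 and HFD replicate 3 together, 47 intervals still lay inside 1.5-fold and 1 member, Idh2, had an unadjusted p under 0.05. With all 6 libraries, 3.68% of all genes tested had such a p in edgeR.

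**Figure D1:**
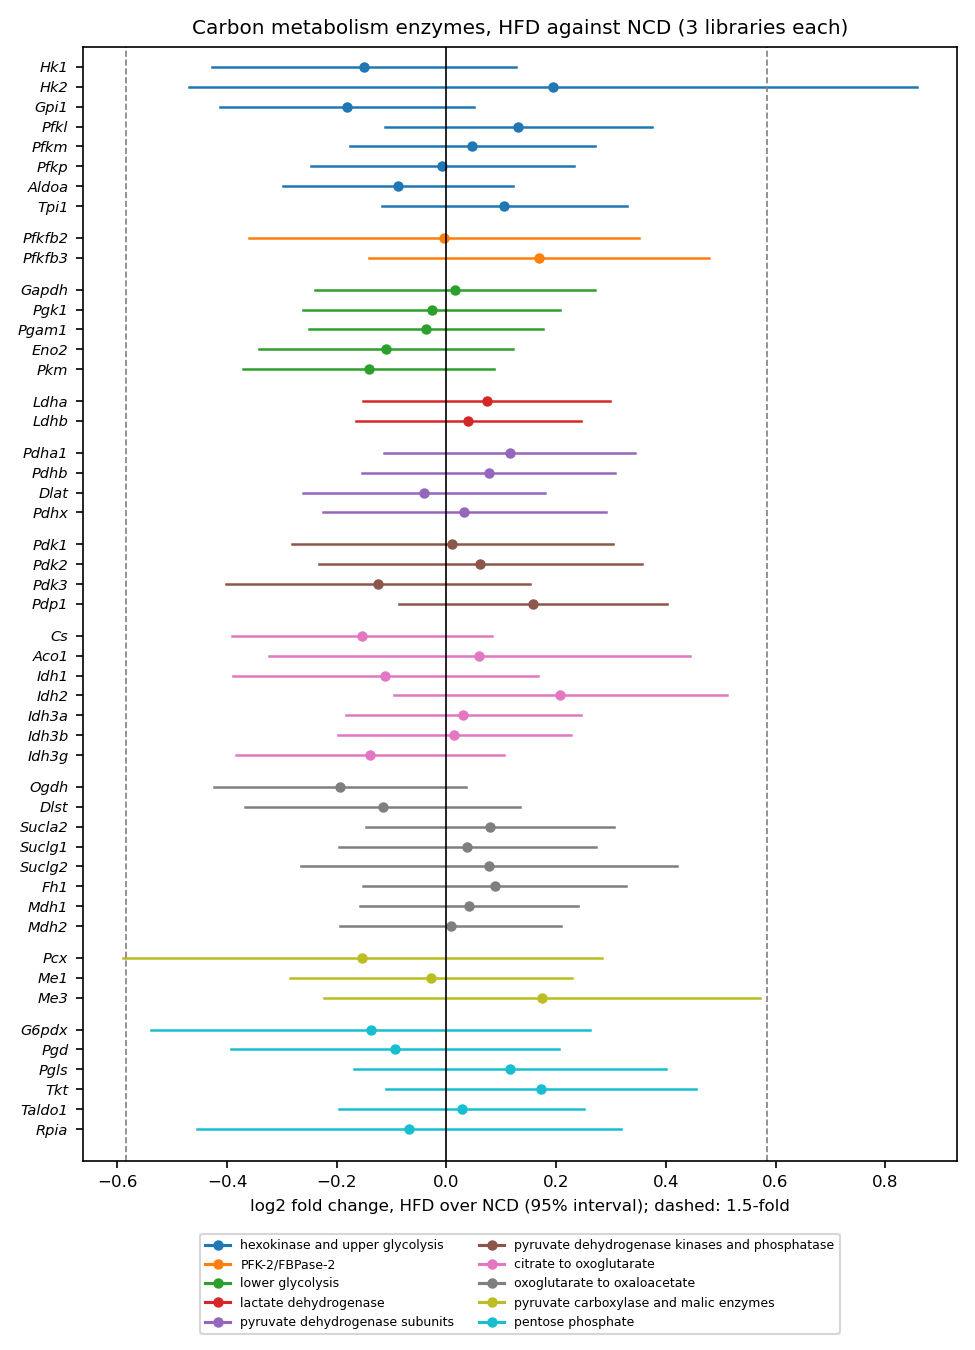
Log2 fold change of HFD over NCD (horizontal axis) with its 95% interval for the 49 members tested, grouped by pathway step and coloured by group. Every interval crosses 0, and the intervals of Hk2 and Pcx reach past the dashed lines at 1.5-fold.

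Hexokinases phosphorylate glucose as it enters the cell, and Hk1 is a form bound to mitochondria that brain tissue is known to use. Hk1 (chr10:62268855-62379908, minus strand on GRCm38) stood at 231, 209 and 208 CPM in NCD replicates 1, 2 and 3 and at 221, 211 and 150.3 CPM in HFD replicates 1, 2 and 3. HFD replicate 3 was the only library below 200 CPM, and the other 5 overlapped between the diets. The log2 fold change was -0.15 ± 0.13 (SE), 95% interval -0.43 to 0.13, and it was 0.0043 without HFD replicate 3. Hk2 (chr6:82725025-82774454, minus strand), the inducible hexokinase, had 29, 48 and 49 counts in NCD libraries and 53, 33 and 36 in HFD libraries, and HFD replicate 1 was the highest. Its log2 fold change of 0.19 ± 0.31 (SE) became -0.13 without HFD replicate 1 and 0.43 without HFD replicate 2, so its direction rested on single libraries.

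The share of Hk1 among the counts of both hexokinases was 98.5%, 97.6% and 97.6% in NCD libraries and 96.7%, 98.3% and 96.8% in HFD libraries. Each QuantSeq read stands for a transcript end and not for transcript length, so these shares were taken from counts without division by length. The last 90 coding bases before the stop codon show how far apart the transcripts are. They come from GENCODE vM21 transcripts on GRCm38, both on the minus strand in exon 18 of 18, at chr10:62269912-62270001 for Hk1 and chr6:82727313-82727402 for Hk2, and capitals mark the 31 bases of each that found no identical partner in a global alignment, with 59 of 90 identical:
Hk1: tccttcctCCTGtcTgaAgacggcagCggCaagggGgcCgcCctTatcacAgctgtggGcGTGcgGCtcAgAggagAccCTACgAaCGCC
Hk2: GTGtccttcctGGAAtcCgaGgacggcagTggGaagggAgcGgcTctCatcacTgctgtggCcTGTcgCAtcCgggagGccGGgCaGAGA

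No stretch of 50 bases in the last 500 of either transcript occurs in the other, and the same held within every isozyme family compared, so no read of 50 bases or more from these stretches matches 2 members of a family exactly.

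Glucose-6-phosphate isomerase, Gpi1, had the second lowest fold change of the members. Its level was 227, 213 and 256 CPM under NCD and 221, 206 and 187 CPM under HFD. HFD replicate 3 was the lowest and NCD replicate 3 the highest, with the rest overlapping, and the log2 fold change was -0.18 ± 0.11 (SE), 95% interval -0.41 to 0.05. It was -0.05 with both of these libraries left out. Phosphofructokinase, which catalyses the committed step of glycolysis, has 3 subunit genes. Pfkm, the muscle-type subunit, was at 169, 173 and 161 CPM under NCD and 171, 189 and 159 CPM under HFD. Pfkl, the liver type, was at 89.98, 73.5 and 74.4 CPM under NCD and 81.6, 94.3 and 84.1 CPM under HFD. Pfkp, the platelet type, was at 141, 139 and 147 CPM under NCD and 152, 152 and 121 CPM under HFD, with HFD replicate 3 the lowest. The diets overlapped for all 3 genes. Their log2 fold changes were 0.05 ± 0.11 for Pfkm, 0.13 ± 0.12 for Pfkl and -0.01 ± 0.11 for Pfkp (SE). The 3′ end of Pfkp overlaps that of Pitrm1 on the other strand over all of its last 500 bases, and the use of strand in counting is not given in the sources used here, so reads of both genes may be mixed in its row. Exons of Hk1, Gpi1, Aldoa, Tpi1, Gapdh, Pdha1, Idh3b, Mdh1, Me1, Me3 and G6pdx also overlap those of a gene annotated on the other strand. Exons of Pfkm, Pfkfb2, Pkm, Pgls and Tkt overlap those of a gene on the same strand, for Pfkm and Pfkfb2 also on the other, and there strand would not separate the reads.

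Aldolase, Aldoa, cleaves fructose 1,6-bisphosphate and stood at 851, 854 and 1034 CPM under NCD and 858, 877 and 841 CPM under HFD. NCD replicate 3 lay above the other 5 libraries, which overlapped, and the log2 fold change was -0.09 ± 0.10 (SE), 95% interval -0.30 to 0.12. Triose phosphate isomerase, Tpi1, stood at 184, 184 and 179 CPM under NCD and 175, 199 and 214 CPM under HFD. Its HFD libraries lay on both sides of the NCD libraries, with a log2 fold change of 0.11 ± 0.11 (SE), 95% interval -0.12 to 0.33.

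Pfkfb2 and Pfkfb3 make and remove fructose 2,6-bisphosphate, an activator of phosphofructokinase. Pfkfb3 had 21.5, 21.9 and 23.8 CPM in NCD libraries and 29.1, 21.7 and 25.02 CPM in HFD libraries, where only HFD replicate 2 lay inside the NCD range. Its log2 fold change was 0.17 ± 0.15 (SE), 95% interval -0.14 to 0.48, and it ran from 0.06 without HFD replicate 1 to 0.27 without HFD replicate 2. Pfkfb2 stood at 13.7, 13.8 and 13.5 CPM under NCD and 15.4, 12.9 and 12.6 CPM under HFD, a log2 fold change of -0.0045. The share of Pfkfb2 in the counts of both differed by -2.78 percentage points, HFD minus NCD, with an exact permutation p of 0.2 over 3 against 3 libraries.

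The later part of glycolysis, from glyceraldehyde-3-phosphate dehydrogenase to pyruvate kinase, was summed over its 5 counted members at 1362, 1347 and 1581 CPM under NCD and 1419.9, 1334 and 1254 CPM under HFD. NCD replicate 3 was highest and HFD replicate 3 lowest. Pyruvate kinase, Pkm, which makes pyruvate and ATP, gave 448, 438 and 518 CPM under NCD and 468, 424 and 379.7 CPM under HFD, again with replicate 3 of each diet at the extremes and a log2 fold change of -0.14 ± 0.11 (SE), 95% interval -0.37 to 0.09. It was -0.06 without NCD replicate 3, -0.07 without HFD replicate 3 and 0.01 without both. Eno2, the neuronal enolase, gave 549, 536 and 677 CPM under NCD and 586, 546 and 499.9 CPM under HFD, a log2 fold change of -0.11 ± 0.11 (SE). Without NCD replicate 3 it was 0.0054, and without both replicates 3 it was 0.06, so its sign rested on NCD replicate 3. Phosphoglycerate kinase, Pgk1, which makes the first ATP of the pathway, had a log2 fold change of -0.03 ± 0.11 (SE), 95% interval -0.26 to 0.21. Phosphoglycerate mutase, Pgam1, had -0.04 ± 0.10 (SE), 95% interval -0.25 to 0.18.

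The rows of Eno1 and Gapdh need care. Eno1, the widely expressed enolase (chr4:150236721-150248879, plus strand), was listed at 0 in every library. Of the 50-base stretches in the last 500 bases of its transcript, 75.2% also occur in another gene. Over all stretches 5 such genes were found, of which 4 are pseudogenes. The fifth, Eno1b, is the only one with rows in the tables, and it has 2 of them. The first held 526, 553 and 574 counts under NCD and 508, 627 and 457 under HFD, and the second, listed next to Eno1, held 541, 566 and 584 counts under NCD and 487, 610 and 493 under HFD. The Eno1 and Eno1b transcripts are identical at 1727 aligned bases and differ at 12, which is 99.31% identity. Both rows overlapped between the diets, with log2 fold changes of 0.14 and 0.11 and unadjusted p of 0.21 and 0.313, and they cannot be assigned to Eno1 or Eno1b from the tables. Gapdh, the glycolytic dehydrogenase often used as a reference gene, held only 414, 465 and 463 counts under NCD and 397, 449 and 331 under HFD. For it 90.5% of the 50-base stretches also occur in another gene. Over all stretches 141 such genes were found, 135 of them pseudogenes, and 8 of the 141 have a row of their own. Its log2 fold change was 0.02 ± 0.12 (SE), 95% interval -0.24 to 0.27, and reads of Gapdh and of its copies cannot be told apart here.

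Lactate dehydrogenase interconverts pyruvate and lactate, with the A subunit of Ldha and the B subunit of Ldhb assembling in mixed tetramers. Ldha had 135, 126 and 115 CPM under NCD and 126, 133 and 137 CPM under HFD, a log2 fold change of 0.07 ± 0.11 (SE), 95% interval -0.15 to 0.30. Ldhb had 259, 272 and 266 CPM under NCD and 261, 275 and 284 CPM under HFD, a log2 fold change of 0.04 ± 0.10 (SE), 95% interval -0.17 to 0.25. The diets overlapped for both genes. Of the 50-base stretches at the 3′ end of Ldhb, 24.4% also occur in the gene Gm5514. The share of Ldha in the counts of both was 34.3%, 31.6% and 30.3% under NCD and 32.6%, 32.6% and 32.5% under HFD, with an exact permutation p of 0.7. All HFD libraries lay inside the NCD range.

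**Figure D2:**
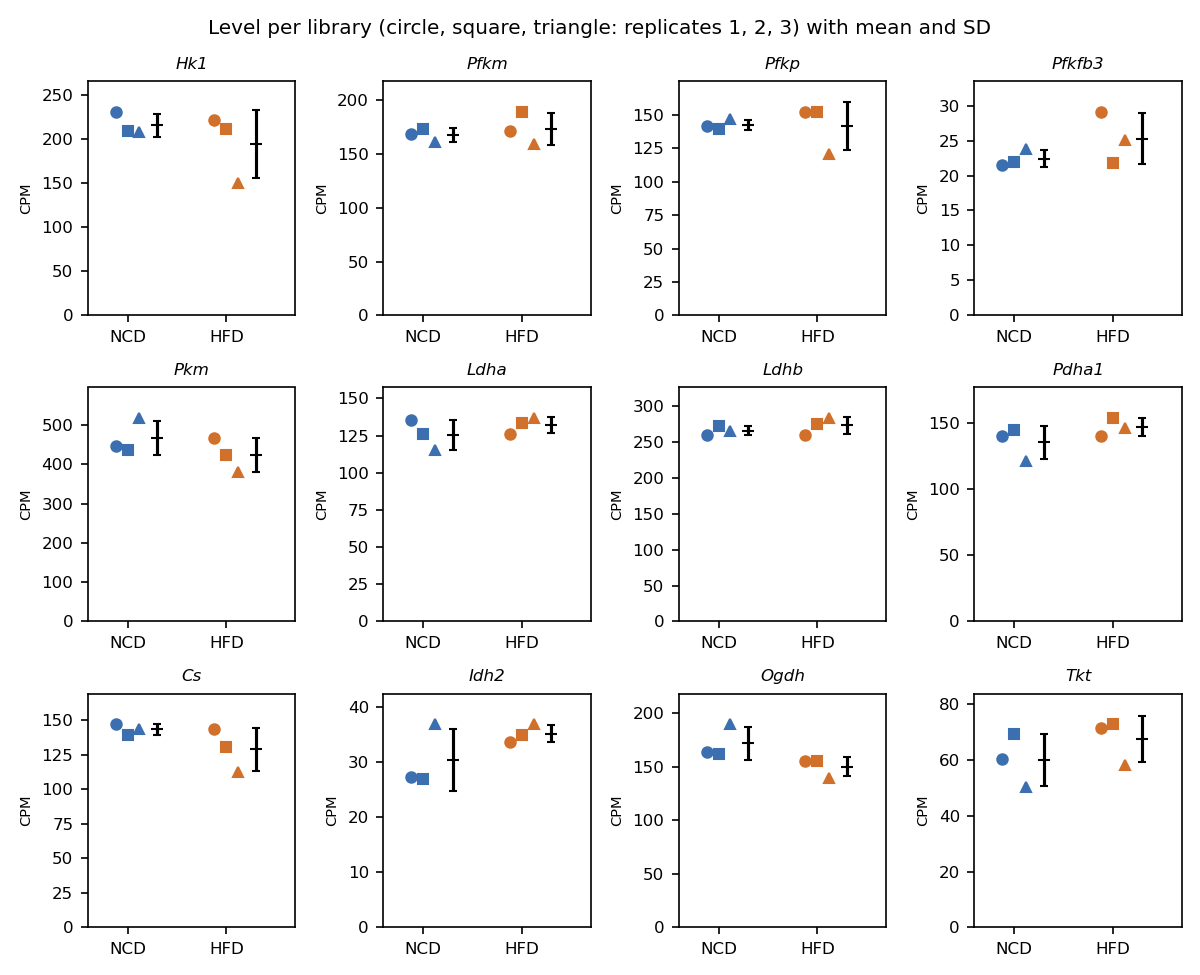
CPM in each library (vertical axis, from 0) for 12 members under NCD (blue) and HFD (orange), with circles, squares and triangles for replicates 1, 2 and 3 and the mean with its SD in black. Ogdh is the only panel in which all HFD libraries lie below all NCD libraries.

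Pyruvate dehydrogenase is a complex that decarboxylates pyruvate, and its kinases switch it off while the phosphatase Pdp1 switches it on. The catalytic subunit gene Pdha1 stood at 140.1, 145 and 121 CPM in NCD libraries and 140.2, 154 and 146 CPM in HFD libraries, a log2 fold change of 0.12 ± 0.11 (SE), 95% interval -0.11 to 0.34. NCD replicate 3 was lowest and the rest overlapped, and without that library the log2 fold change was 0.04. The 3′ end of Pdha1 shares 18.6% of its 50-base stretches with Map3k15 on the other strand. Over the 4 subunit genes that are among the 50, the log2 fold change ran from -0.04 for Dlat to 0.12 for Pdha1. Pdp1 was at 253, 245 and 220.4 CPM under NCD and 252, 239.5 and 311 CPM under HFD, where HFD replicate 3 was highest and NCD replicate 3 lowest, with a log2 fold change of 0.16 ± 0.12 (SE), 95% interval -0.09 to 0.40. It was 0.10 without NCD replicate 3, 0.04 without HFD replicate 3 and -0.02 without both.

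Kinases that block the complex are known to respond to fatty acids in other tissues. Pdk1 gave 28.0, 33.1 and 32.0 CPM under NCD and 35.4, 31.3 and 27.4 CPM under HFD. Pdk2 gave 47.3, 53.1 and 48.4 CPM under NCD and 58.4, 56.4 and 40.3 CPM under HFD. Pdk3 gave 35.5, 30.2 and 37.4 CPM under NCD and 30.1, 32.7 and 31.8 CPM under HFD. The diets overlapped for all 3, with HFD replicate 3 the lowest library for Pdk1 and Pdk2. Their log2 fold changes were 0.01 ± 0.14 for Pdk1, 0.06 ± 0.14 for Pdk2 and -0.12 ± 0.13 for Pdk3 (SE). Pdk4, the kinase best known for a fasting and lipid response, is not among the 50 and had 30, 33 and 38 counts under NCD and 40, 34 and 36 under HFD, with a log2 fold change of 0.34 ± 0.30 (SE) and an unadjusted p of 0.264 in edgeR's quasi-likelihood test.

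In the TCA cycle, citrate synthase, Cs, which joins acetyl-CoA to oxaloacetate, was at 147, 139 and 144 CPM under NCD and 144, 130.5 and 112 CPM under HFD. HFD replicate 3 was lowest and HFD replicate 1 lay inside the NCD range, and the log2 fold change was -0.15 ± 0.11 (SE), 95% interval -0.39 to 0.08. It was -0.07 without HFD replicate 3. The 3 subunits of NAD-dependent isocitrate dehydrogenase, Idh3a, Idh3b and Idh3g, had log2 fold changes of 0.03, 0.01 and -0.14, and the cytosolic aconitase Aco1 had 0.06 ± 0.18 (SE). For Idh3a, the catalytic subunit, the levels were 177, 182 and 164 CPM under NCD and 172, 181 and 182 CPM under HFD. The summed level of the 7 members from citrate synthase to isocitrate dehydrogenase was 669, 652 and 651 CPM under NCD and 637, 639 and 651 CPM under HFD. The HFD libraries all lay below the NCD libraries here, though by less than 1 CPM at the closest pair.

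Idh2, the mitochondrial NADP-dependent isocitrate dehydrogenase (chr7:80094846-80115392, minus strand), had the highest fold change. It gave 27.3, 27.0 and 36.9 CPM in NCD libraries and 33.7, 34.9 and 36.8 CPM in HFD libraries, a mean of 30.4 ± 5.63 and 35.1 ± 1.60 CPM (SD, n = 3 each). NCD replicate 3 matched the highest HFD library, and the other 2 NCD libraries lay below all HFD libraries. The log2 fold change was 0.21 ± 0.14 (SE), 95% interval -0.10 to 0.51, with an unadjusted p of 0.166 in edgeR's quasi-likelihood test. In the same edgeR fit it came to 0.37 (unadjusted p 0.0165) without NCD replicate 3, and to 0.34 (unadjusted p 0.0152) when HFD replicate 3 was left out too. Idh1, the cytosolic form, gave 63.8, 55.9 and 63.6 CPM under NCD and 46.6, 56.8 and 66.1 CPM under HFD, a log2 fold change of -0.11 ± 0.13 (SE).

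Idh1 therefore made up 70.0%, 67.5% and 63.3% of the counts of both under NCD and 58.1%, 62.0% and 64.2% under HFD, a difference of -5.52 percentage points, the widest of the 16 isozyme shares compared. The groups overlapped through NCD replicate 3 and HFD replicate 3, and the exact permutation p was 0.2 with an adjusted p of 0.8 over the 16 shares. The smallest p this design allows is 0.1, which 0 shares reached. The coding ends of both transcripts, 85 bases on the minus strand at chr1:65159468-65159552 in exon 9 of 9 for Idh1 and chr7:80095119-80095203 in exon 11 of 11 for Idh2, are shown with capitals at the 37 bases that found no identical partner, with 48 of 85 identical:
Idh1: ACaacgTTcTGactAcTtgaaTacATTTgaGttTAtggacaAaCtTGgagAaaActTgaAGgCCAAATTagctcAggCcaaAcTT
Idh2: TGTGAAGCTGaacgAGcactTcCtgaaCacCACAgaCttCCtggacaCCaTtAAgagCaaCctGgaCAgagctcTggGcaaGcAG

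**Figure D3:**
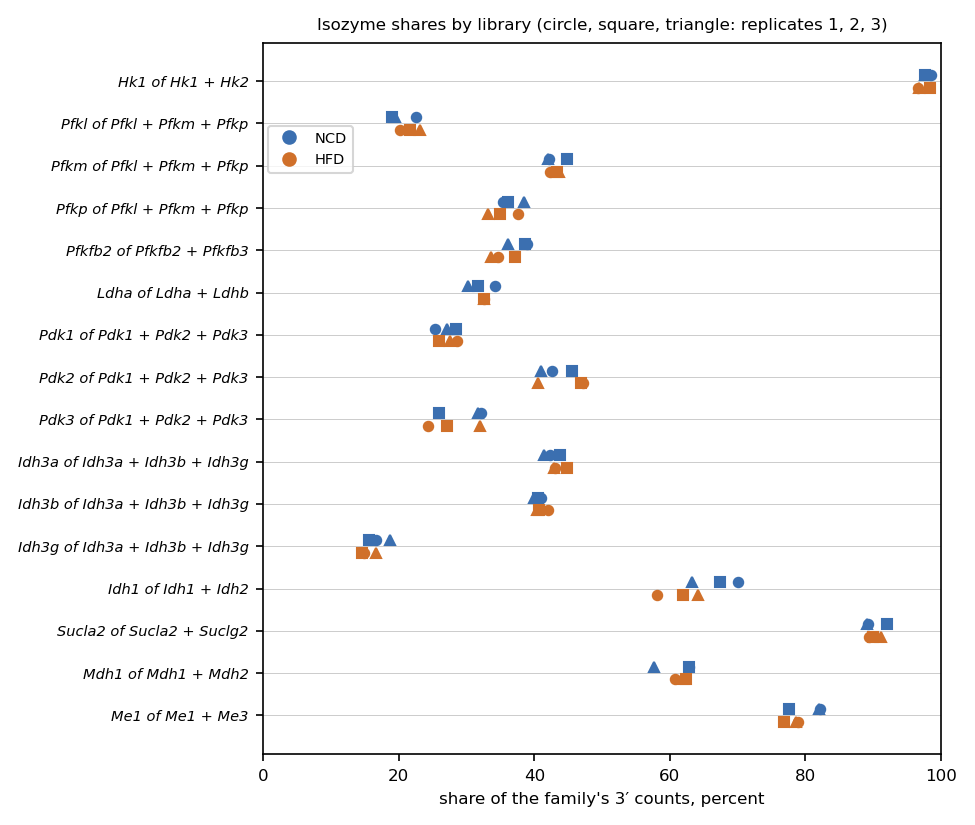
Share of an isozyme family's counts taken by each gene (horizontal axis, percent) in each library, NCD in blue and HFD in orange, with circles, squares and triangles for replicates 1, 2 and 3. Idh1 shows the widest shift between the diet means, and the groups still overlap in its row.

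Ogdh (chr11:6291633-6356642, plus strand), the first component of the oxoglutarate dehydrogenase complex, had the lowest fold change and the smallest p. It gave 164, 162 and 189.8 CPM under NCD and 155, 156 and 139.7 CPM under HFD, a mean of 172 ± 15.7 and 150.1 ± 9.03 CPM (SD, n = 3 each). All HFD libraries lay below all NCD libraries, which was so for 1 of 49 members and for 4.49% of all genes tested. The converse, all HFD libraries above all NCD libraries, was seen for 0 members and for 4.31% of all genes. The log2 fold change of Ogdh was -0.19 ± 0.11 (SE), 95% interval -0.42 to 0.03, with an unadjusted p of 0.0915 and an adjusted p of 0.979 in edgeR's quasi-likelihood test. In the same edgeR fit it came to -0.07 (unadjusted p 0.398) when NCD replicate 3 and HFD replicate 3 were left out. Dlst, the second component, had a log2 fold change of -0.12 ± 0.12 (SE). The 6 members of the steps from succinyl-CoA on had log2 fold changes from 0.01 to 0.09. These members were Sucla2, Suclg1, Suclg2, fumarase (Fh1) and the malate dehydrogenases Mdh1 and Mdh2. The succinate dehydrogenase subunits of these steps, Sdha, Sdhb, Sdhc and Sdhd, are not among the members. Their log2 fold changes were -0.04, 0.09, 0.04 and 0.08.

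Pyruvate carboxylase, Pcx, which refills the cycle with oxaloacetate and is known as an astrocyte enzyme, had 11.5, 16.7 and 19.6 CPM under NCD and 17.9, 12.6 and 12.9 CPM under HFD. The diets overlapped widely, and the log2 fold change of -0.15 ± 0.21 (SE) came to 0.02 without NCD replicate 3 and to 0.09 with HFD replicate 3 left out too. Malic enzyme 3, Me3, gave 10.6, 14.6 and 10.4 CPM under NCD and 12.7, 12.9 and 14.7 CPM under HFD, with a log2 fold change of 0.17 ± 0.19 (SE), 95% interval -0.22 to 0.57. It ran from 0.09 without NCD replicate 3 to 0.35 without NCD replicate 2. Malic enzyme 1, Me1, the cytosolic form, had a log2 fold change of -0.03 ± 0.12 (SE).

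In the pentose phosphate pathway, G6pdx, the entry enzyme that makes NADPH, gave 13.6, 14.6 and 14.9 CPM under NCD and 16.6, 12.3 and 10.3 CPM under HFD. HFD replicate 3 was the lowest and HFD replicate 1 the highest, and the log2 fold change was -0.14 ± 0.19 (SE), 95% interval -0.54 to 0.26. It was 0.0002 without HFD replicate 3 and -0.33 without HFD replicate 1. Transketolase, Tkt, which links the pathway back to glycolysis, gave 60.4, 69.3 and 50.5 CPM under NCD and 71.5, 73.0 and 58.2 CPM under HFD. Its log2 fold change was 0.17 ± 0.13 (SE), 95% interval -0.11 to 0.45, and edgeR gave 0.27 (unadjusted p 0.0447) when HFD replicate 3 was left out and 0.06 when NCD replicate 3 was. The other enzymes of the pathway, Pgls, Pgd, Rpia and Taldo1, had log2 fold changes of 0.12, -0.09, -0.07 and 0.03, with standard errors from 0.11 to 0.18.

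Beyond the 50 members, 48 further genes of the same pathways were listed, and 37 of their 49 rows were tested. Of these, 18 were higher and 19 lower under HFD, with a median log2 fold change of -0.0037. In edgeR 2 of the 37 had an unadjusted p under 0.05, beside 3.68% of all genes tested. None had an adjusted p under 0.05. The highest fold change was that of Pdpr, a subunit of the pyruvate dehydrogenase phosphatase, at 7, 12 and 2 counts under NCD and 13, 8 and 10 under HFD, a log2 fold change of 0.77 ± 0.60 (SE).

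Liver markers also differed between libraries. Summed over the 8 liver markers listed, the level ran from 10.6 to 53.0 CPM under NCD and from 5.77 to 12.5 CPM under HFD, so the diets overlapped. All 5 of the 5 liver markers with enough counts were lower under HFD with an unadjusted p under 0.05 in edgeR's test. Of all genes tested, 3.68% had such a p in either direction. No liver marker was at 0 in every library. The part of such RNA in the counts of the carbon genes was not tested.

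The libraries differed among themselves in ways the diet does not name. HFD replicate 3 held the highest value for 14 and the lowest value for 18 of the 49 members, beside 26.2% and 27.1% of all genes tested. NCD replicate 3 held the highest for 12 and the lowest for 13, beside 21.4% and 21.7% of all genes. In NCD replicate 3 Tkt, Me3, Fh1, Pdha1 and Pdp1 were the lowest against the mean of the 6 libraries, and Pcx, Eno2, Ogdh, Gpi1 and Aldoa were the highest. The deviation of a member in NCD replicate 3 went with the GC content of the last 500 bases of its transcript, with r = 0.40 and rho = 0.40 over the 49 members. In HFD replicate 3 it went the other way, with r = -0.31 and rho = -0.29. Over the 12735 genes with a value the r was 0.16 and -0.15. The points of a library share its preparation and depth, so these are descriptions. With each library's trend on GC content taken out, the median log2 fold change was 0.04 and 0 members had an unadjusted p under 0.05 in edgeR.

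**Figure D4:**
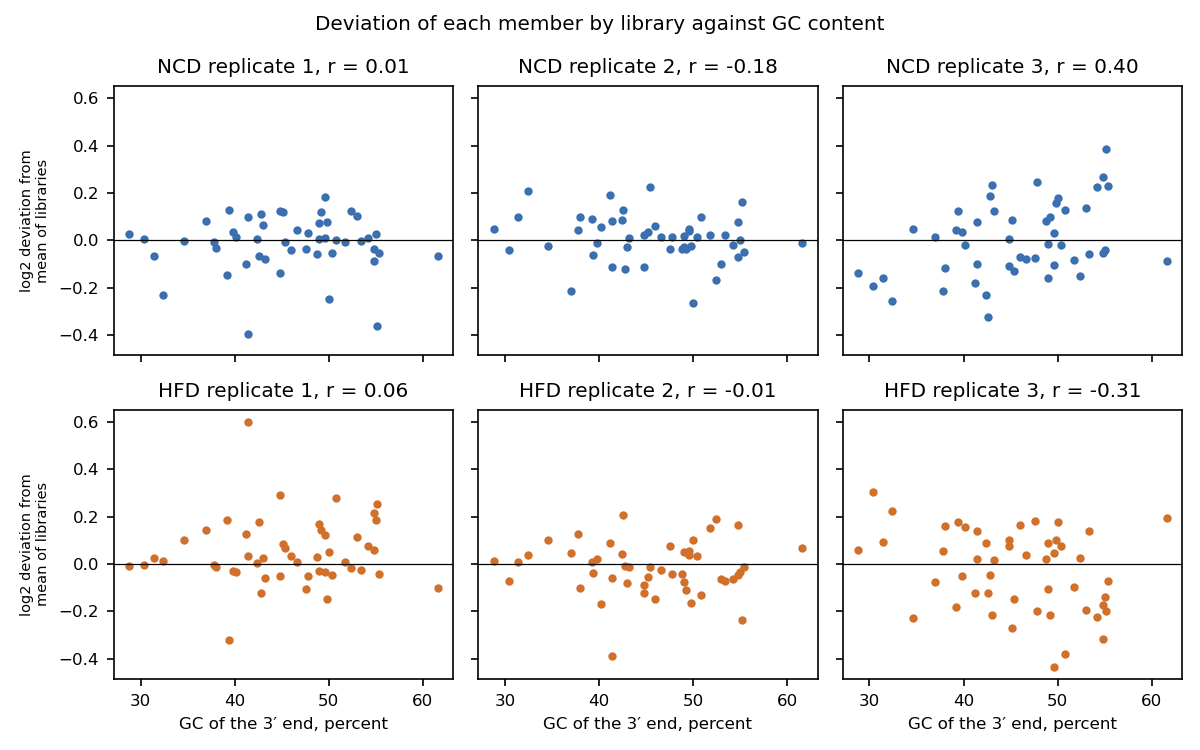
Deviation of each member's log2 CPM from the mean of the 6 libraries (vertical axis) against the GC content of the last 500 bases of its transcript (horizontal axis, percent), in each library. The points rise with GC content in NCD replicate 3 and fall in HFD replicate 3.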

How the data were processed

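Per the labels and the study's methods, reads from QuantSeq 3′ mRNA-Seq libraries were aligned by the authors to mm10 with Bowtie2 and summarised with Bedtools coverage over unique and multiple alignments; single-end reads of 75 bases were trimmed first. The authors deposited the read counts per gene, raw whole numbers without normalization, for 6 libraries. Annotation and use of strand are not given in the sources used here. A count of 3 corresponded to between 0.310 and 0.438 CPM, which covers counting error only, since no molecular identifiers were counted. Replicates differed by more than sampling noise (chi-square per degree of freedom 3.575 to 17.13), so each was kept.

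The fits used edgeR 4.0.16 under R 4.3.3; DESeq2 1.42.0 and limma 3.58.1 served as alternatives. Genes were kept by filterByExpr (minimum count 10, minimum total 15), libraries scaled by TMM and diets compared with the quasi-likelihood F-test without covariates and Benjamini-Hochberg adjustment over 13771 genes. The common biological coefficient of variation was 0.126. Standard errors were the log2 fold change over the square root of F, and intervals are at 95%. The statistics were tested on simulated data. Isozyme shares were compared with a two-sided exact permutation test over 20 splits, adjusted over 16 shares. The study's own quantile normalization was an alternative. Positions and transcripts came from GENCODE vM21 on GRCm38. Summaries and figures used pandas 2.3.3, scipy 1.17.1 and matplotlib 3.10.9 under Python 3.11.15.

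The members, gene lists and tests were chosen with earlier results of these data known. Genes named with values were the enzymes at regulated steps, both lactate dehydrogenases, both enolases and Gapdh, members past an unadjusted p of 0.05, the 5 highest and 5 lowest fold changes, members whose diets did not overlap, and, of the other genes, those past an unadjusted p of 0.05 and the extremes of fold change. Other genes named were chosen after their values were seen. The GC correction and the fit without both replicates 3 were added after seeing the data. Some genes that this rule would name are not reported here.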

Additional observations from a re-analysis of the deposited data

How the results depend on the processing

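Under DESeq2, limma-voom, quantile normalization, upper-quartile scaling, library size alone, no count filter, at least 10 counts in every library, rows over 2% of counts left out, robust estimation and the GC correction, 0 members had an unadjusted p under 0.05, and between 46 and 48 intervals lay inside 1.5-fold. With each library left out in turn, 0 to 2 members had an unadjusted p under 0.05, 43 to 48 intervals lay inside 1.5-fold and the median log2 fold change ran from -0.01 to 0.04. The 2 without HFD replicate 3 were Tkt and Idh3g, and the 1 without NCD replicate 3 was Idh2. Without both, 1 member and 4 of the other carbon genes had an unadjusted p under 0.05, in place of 0 and 2. With all 6 libraries, 3.68% of all genes tested had such a p in edgeR. The share of all genes is not given here for the fits with libraries left out. The other carbon genes past 1.5-fold numbered 3 of 37 tested rows, where 3.73% of all genes tested were past it. They numbered 11 without a count filter, 0 with at least 10 counts in every library, and 2 to 5 with a library left out. The other carbon genes with an unadjusted p under 0.05 in edgeR numbered 2, where 3.68% of all genes tested had such a p. They numbered 0 with at least 10 counts in every library, and 1 to 2 with a library left out.

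The labels do not say whether replicate numbers pair the libraries. Deviations of same-numbered libraries of the 2 diets had correlations of -0.03, 0.05 and -0.06, and not every library correlated best with its own number. Such correlations cannot exclude a pairing. With the replicate number as a block, 45 intervals lay inside 1.5-fold, the median was 0.01, and 0 members and 2 other carbon genes had an unadjusted p under 0.05. Without the block, 3.68% of all genes tested had such a p in edgeR. Hk2, at 29 to 53 counts a library, had the widest interval, and Pcx, at 93 to 186 counts, was the other member whose interval reached past 1.5-fold.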

Other observations

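Among the carbon genes outside the 50, chosen here after their values were seen, Aldoc, the aldolase of brain and an astrocyte-enriched enzyme, had 7699, 9005 and 9075 counts under NCD and 6748, 9606 and 8156 under HFD. In CPM this was 950.3, 971.4 and 956.1 under NCD and 971.4, 1049.7 and 1121.3 under HFD, so all HFD libraries lay above all NCD libraries, though HFD replicate 1 and NCD replicate 2 were the same at this rounding, with a log2 fold change of 0.13 ± 0.09 (SE), 95% interval -0.07 to 0.32 and an unadjusted p of 0.182 in edgeR's quasi-likelihood test. G6pc3, a glucose-6-phosphatase, was at 42.0, 48.5 and 42.5 CPM under NCD and 35.7, 41.0 and 39.2 CPM under HFD, with all HFD libraries below, a log2 fold change of -0.20 ± 0.12 (SE) and an unadjusted p of 0.129 in edgeR. Of the 37 tested rows outside the 50, 1 had all HFD libraries above all NCD libraries and 3 had them below. Over all genes tested the shares were 4.31% and 4.49%. Mpc2, a subunit of the mitochondrial pyruvate carrier, was at 149, 143 and 111 CPM under NCD and 137, 149 and 184 CPM under HFD, which overlapped. The 4 succinate dehydrogenase subunits, Sdha, Sdhb, Sdhc and Sdhd, had log2 fold changes of -0.04, 0.09, 0.04 and 0.08. None of these had an adjusted p under 0.05.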
